A study of Arabidopsis thaliana with 13 samples.

Results

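Class III peroxidases are secreted haem enzymes of plants that use hydrogen peroxide to oxidise phenolic substrates in the cell wall, and some of them also produce reactive oxygen species there. In roots they are known for cross-linking wall proteins such as extensins, for lignin polymerisation in xylem and in the Casparian strip of the endodermis, and for tip growth of root hairs. Their hydrogen peroxide comes in part from NADPH oxidases of the plasma membrane. Of 60 listed Arabidopsis thaliana class III peroxidase loci, 43 had a probe set that the platform's probe table assigns to that gene alone. These 43 are described here, among 13333 genes with such a probe set on the ATH1 array. The other 17 loci were not analysed here, among them the root hair genes AT5G22410 (RHS18) and AT5G67400 (RHS19) and the Casparian strip gene AT5G42180 (PER64).

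RNA of whole roots of 10-day-old plants was measured on 13 Affymetrix ATH1 arrays, 1 per sample. CLE3 codes for a small secreted peptide signal, and CLV1 (CLAVATA1) for a receptor kinase of such peptides. Of CLE3ox, plants that overexpress CLE3 in Col-0, lines 12-1 and 17-3 (n = 2 each) were set against wild-type Col-0 (n = 3). The CLV1 mutant clv1-15 in the Ler (Landsberg erecta) background (n = 3) was set against wild-type Ler (n = 3). All 5 groups were grown under 16 h light and 8 h dark at 22 °C on MGRL medium with 0.1 mM KNO3, a low nitrate supply, and 1% sucrose. The promoter that drives CLE3 and the number of plants per sample are not given in the sources used here, each overexpression line is a line of its own, and clv1-15 is a single allele. The labels call the arrays biological replicates without saying that they came from separate cultures, so p values measure the spread between these samples within groups. The p values for CLE3ox leave out the spread between its lines.

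Values are MAS5 signals, a linear brightness that the authors scaled per array, with a median of 189.8 to 200.1. Replicates of a group correlated at r = 0.9867 or more across probe sets, which are not independent replicates. The root hair markers EXPA7 and EXPA18 had signals of 656 or more in every array, 2 of 7 listed root hair markers with a probe set of their own, while 0 of 8 listed endodermis markers had one. The green tissue genes RCA and LHCB4.1, 2 of 8 listed shoot markers, were not at 0 in any root sample. A probe set passed the test at a limma adjusted p under 0.05 over all 15922 tested probe sets, and 38 of the 43 peroxidases were among those tested. Rises, falls and differences are given as log2 fold changes of signal + 16, with the standard error (SE). Signals of different probe sets were not compared with each other, since probes differ in brightness.

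The root hair group, a list chosen with earlier results of these data known, held 8 measured loci of 11 listed. In clv1-15 roots 4 of these 8 rose and 0 fell, with a median log2 fold change of 0.29 over the 8 against -0.02 over all tested probe sets, where 6.88% rose and 8.4% fell. AT4G26010, a peroxidase known from root hair growth, had signals of 6842, 6826 and 7370.2 in clv1-15, against 5104, 5081 and 5298.5 in Ler. Every clv1-15 array lay above every Ler array, and the rise was 0.44 ± 0.06 (SE, adjusted p = 0.00036). AT3G49960, which is known to be expressed in root hairs, had 1717, 1987 and 1913.5 in clv1-15, against 1403, 1248 and 1269.9 in Ler, again without overlap. It rose by 0.51 ± 0.07 (SE, adjusted p = 0.00035). For AT1G30870 the signals were 2372, 2546.5 and 2761 in clv1-15 and 1936, 1417 and 1582 in Ler. This gene rose by 0.64 ± 0.10 (SE, adjusted p = 0.00048), the largest rise among the tested peroxidases in this mutant. AT1G34510 had 344, 325 and 321 in clv1-15, against 266, 209 and 219.6 in Ler, and rose by 0.49 ± 0.10 (SE, adjusted p = 0.006). These 4 calls held when any 1 array was left out, with adjusted p values between 9e-05 and 0.027.

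The other 4 measured root hair peroxidases did not pass in clv1-15. AT5G17820, a known target of the transcription factor UPBEAT1 in the root tip, had 4512, 5604.5 and 5874 in clv1-15 and 4984, 4781 and 4693 in Ler, with overlapping groups (0.14 ± 0.09, adjusted p = 0.3). AT5G64100 and AT5G39580, which are known from root hair growth in the cold, had log2 fold changes of -0.17 ± 0.08 (adjusted p = 0.17) and -0.43 ± 0.23 (adjusted p = 0.21). AT4G30170 had -0.21 ± 0.09 (adjusted p = 0.13). In the whole root hair group 5 fold changes were positive and 3 negative. The 3 negative ones did not pass, and whether members differ in direction was not tested.

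**Figure D1:**
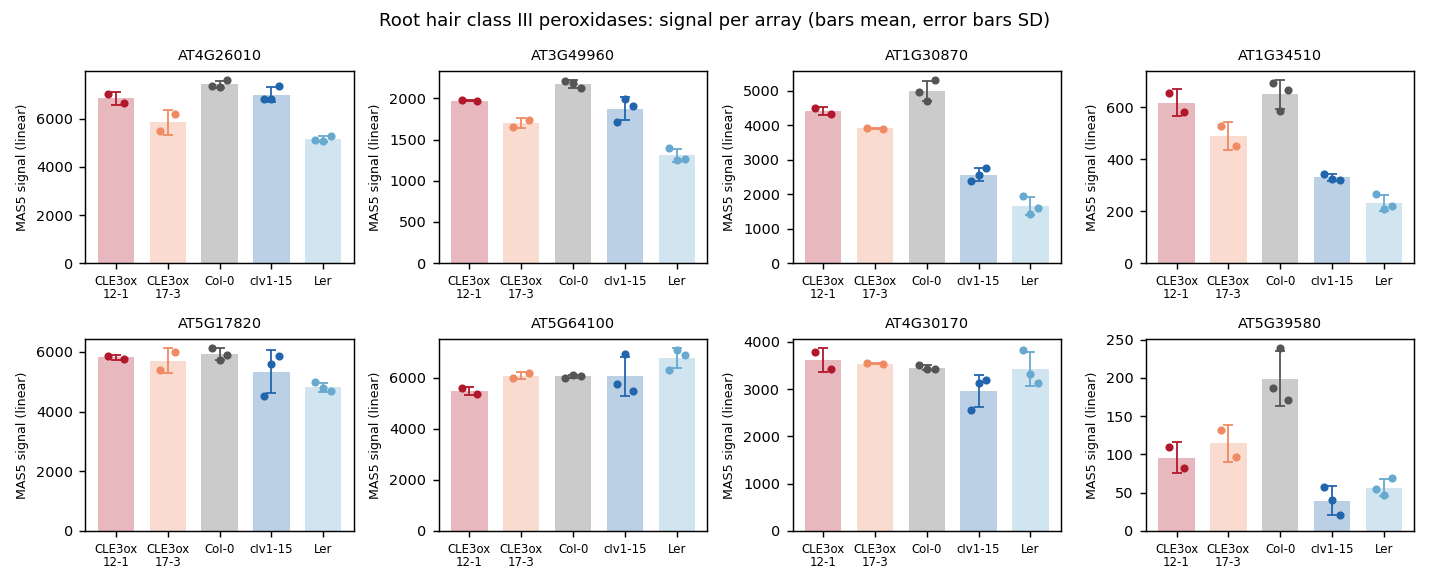
Signal per array (linear MAS5 signal, points) of the 8 measured root hair peroxidases in both CLE3ox lines, Col-0, clv1-15 and Ler, with group means as bars and SD as error bars. In the upper row the clv1-15 arrays lie above the Ler arrays and the arrays of line 17-3 below those of Col-0; for AT4G26010 these are 6826 to 7370 against 5081 to 5298.5, and 5495 and 6215.5 against 7346.5 to 7614.

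Under CLE3 overexpression 1 of the 8 root hair peroxidases fell (AT5G39580) and 0 rose, with a median log2 fold change of -0.23, against 0.01 over all tested probe sets. Among all tested probe sets 2.44% passed, 1.06% higher and 1.39% lower. The 4 genes that rose in clv1-15 had negative fold changes, and 2 of them fell in line 17-3, where 3.32% of all tested probe sets passed and 1.65% fell. AT4G26010 had 5495 and 6215.5 in line 17-3 and 7050.5 and 6676 in line 12-1, against 7354, 7346.5 and 7614 in Col-0. All 4 CLE3ox arrays were below the 3 Col-0 arrays. The fall passed in line 17-3 at -0.35 ± 0.07 (SE, adjusted p = 0.012), while line 12-1 had -0.12 ± 0.07 (adjusted p = 0.73) and the mean of both lines -0.23 ± 0.06 (adjusted p = 0.054). AT3G49960 had 1654.5 and 1742 in line 17-3 and 1979 and 1966 in line 12-1, against 2217, 2183 and 2124 in Col-0. It fell in line 17-3, with a log2 change of -0.35 ± 0.08 (SE, adjusted p = 0.025), and had -0.14 ± 0.08 (adjusted p = 0.71) in line 12-1. Both calls in line 17-3 rest on few arrays. Without the first array of that line AT4G26010 had an adjusted p of 0.12 (0.0073 to 0.12 over the alternatives run). AT3G49960 lost its call without any 1 of the 5 arrays (0.052 to 0.13, 0.019 to 0.13 over the alternatives run).

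AT1G30870 had 3920 and 3884 in line 17-3 and 4493 and 4324 in line 12-1, against 4967, 4708 and 5301 in Col-0, lower in every CLE3ox array but not past the threshold (mean of both lines -0.27 ± 0.09, adjusted p = 0.16). AT1G34510 had 529 and 452 in line 17-3 and 655 and 580.4 in line 12-1, against 693, 588 and 668 in Col-0. Its line 17-3 arrays were lower than Col-0 (-0.40 ± 0.12, adjusted p = 0.086), while of those of line 12-1 one lay within the Col-0 range and the other just below it.

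The effect of CLE3 overexpression and that of the clv1-15 mutation were compared directly as CLE3ox minus Col-0 less clv1-15 minus Ler, groups that share no arrays. The CLE3ox effect was measured only in the Col-0 background and the clv1-15 effect only in Ler. Background and genetic change therefore cannot be told apart in this difference. Of the 38 tested peroxidases 9 differed between the effects, 3 with a higher and 6 with a lower CLE3ox effect, or 23.7%, where 11.2% of all tested probe sets did (5.74% higher and 5.47% lower). The 4 root hair genes were among the 6. They were named above for their rise in clv1-15, and that rise is part of this difference. The difference is therefore no separate support for an opposite effect. In CLE3ox itself none of the 4 passed (limma adjusted p 0.054 to 0.28). The same limit holds for other genes already called in clv1-15 or in CLE3ox. The difference was -0.67 ± 0.09 (SE, adjusted p = 0.00016) for AT4G26010 and -0.76 ± 0.10 (SE, adjusted p = 2e-04) for AT3G49960. For AT1G30870 it was -0.91 ± 0.13 (SE, adjusted p = 0.00043), and for AT1G34510 -0.72 ± 0.14 (SE, adjusted p = 0.0048). These 4 differences passed in every fit that left out 1 of the 13 arrays, with adjusted p values of 5.8e-05 to 0.018.

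The summed signal of EXPA7 and EXPA18, expansins of root hair walls, was 2097 to 2378 in clv1-15, against 1503 to 1765 in Ler. It was 3290.3 to 3293 in line 12-1 and 2641.5 to 2835 in line 17-3, against 3374 to 3875 in Col-0. EXPA18 rose in clv1-15 (EXPA7 0.24 ± 0.09, adjusted p = 0.085) by 0.68 ± 0.10 (SE, adjusted p = 0.00059), and EXPA7 fell in line 17-3, with a log2 change of -0.45 ± 0.10 (SE, adjusted p = 0.021). EXPA18 had -0.40 ± 0.12 in line 17-3 (adjusted p = 0.08), and in line 12-1 neither passed (EXPA7 -0.17 ± 0.10, adjusted p = 0.71, and EXPA18 -0.15 ± 0.12, adjusted p = 0.82). Of the shoot markers, the summed signal of RCA and LHCB4.1 was 1437 to 1579.5 in clv1-15, against 912 to 1247 in Ler, and 674 to 801 in line 12-1 and 1006 to 1023 in line 17-3, against 702 to 774 in Col-0. Both rose in clv1-15 (0.49 ± 0.12 for RCA and 0.43 ± 0.09 for LHCB4.1), and LHCB4.1 rose in line 17-3 (0.51 ± 0.10). The part of cell makeup or of shoot RNA in the peroxidase values was not tested. In whole roots, fewer cells of a type and less RNA per cell cannot be told apart.

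Of the 38 tested peroxidases 4 passed in CLE3ox, or 10.5%, against 2.44% of all tested probe sets. The median log2 fold change of the 38 was -0.03, against 0.01 over all tested. AT3G21770 was the 1 that rose. Its signals were 4552 and 4154 in line 12-1 and 5638 and 5088 in line 17-3, against 3581, 3973 and 3398 in Col-0. All 4 overexpression arrays were above the Col-0 arrays. Line 12-1 alone had 0.25 ± 0.09 (adjusted p = 0.44) and line 17-3 0.55 ± 0.09 (adjusted p = 0.0028). In the mean of both lines the rise was 0.40 ± 0.08 (SE, adjusted p = 0.0089). Without the last Col-0 array the adjusted p was 0.061 (0.0023 to 0.061 over the alternatives run). AT3G21770 fell in clv1-15, where it had 1810.4, 1718 and 1515, against 2074, 2093 and 2208.5 in Ler (-0.34 ± 0.08 SE, adjusted p = 0.013). Without the last clv1-15 array that adjusted p was 0.056 (0.0048 to 0.056 over the alternatives run). The effects of CLE3ox and clv1-15 on this gene differed by 0.74 ± 0.11 (SE, adjusted p = 0.00064).

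Among the 3 falls, AT1G14550 had 125 and 116 in line 12-1 and 139 and 84.7 in line 17-3, against 192, 195 and 187 in Col-0. Its log2 fold change was -0.67 ± 0.13 (SE, adjusted p = 0.011), with values in line 12-1 (-0.60 ± 0.16, adjusted p = 0.15) and in line 17-3 (-0.73 ± 0.16, adjusted p = 0.016). AT1G71695 had 487 and 472 in line 12-1 and 381.5 and 342 in line 17-3, against 493, 548 and 588 in Col-0. Line 12-1 alone had -0.17 ± 0.11 (adjusted p = 0.73) and line 17-3 -0.56 ± 0.11 (adjusted p = 0.0067). In the mean of both lines the gene fell, with a log2 change of -0.37 ± 0.09 (SE, adjusted p = 0.04). Without any 1 of 5 arrays (both of line 12-1, the second of line 17-3, and Col-0 arrays 2 and 3, each singly) this call ended, with adjusted p values of 0.08 to 0.18 (0.036 to 0.18 over the alternatives run). In clv1-15 the same gene had 720.4, 867 and 738, against 668, 636 and 589 in Ler, without overlap and just short of the threshold (0.29 ± 0.10, adjusted p = 0.054). The effects differed by -0.66 ± 0.13 (SE, adjusted p = 0.0049).

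AT5G39580, placed in both the root hair and the defence list, had 110.1 and 81.6 in line 12-1 and 132 and 97 in line 17-3, against 187, 239 and 171 in Col-0. The overexpression arrays were all below the Col-0 arrays. This low-signal gene had the deepest fall of the tested peroxidases in CLE3ox, -0.83 ± 0.21 (SE, adjusted p = 0.049), at the edge of the threshold. The call was lost when any 1 of the 7 arrays was left out (adjusted p 0.052 to 0.18, 0.013 to 0.18 over the alternatives run).

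**Figure D2:**
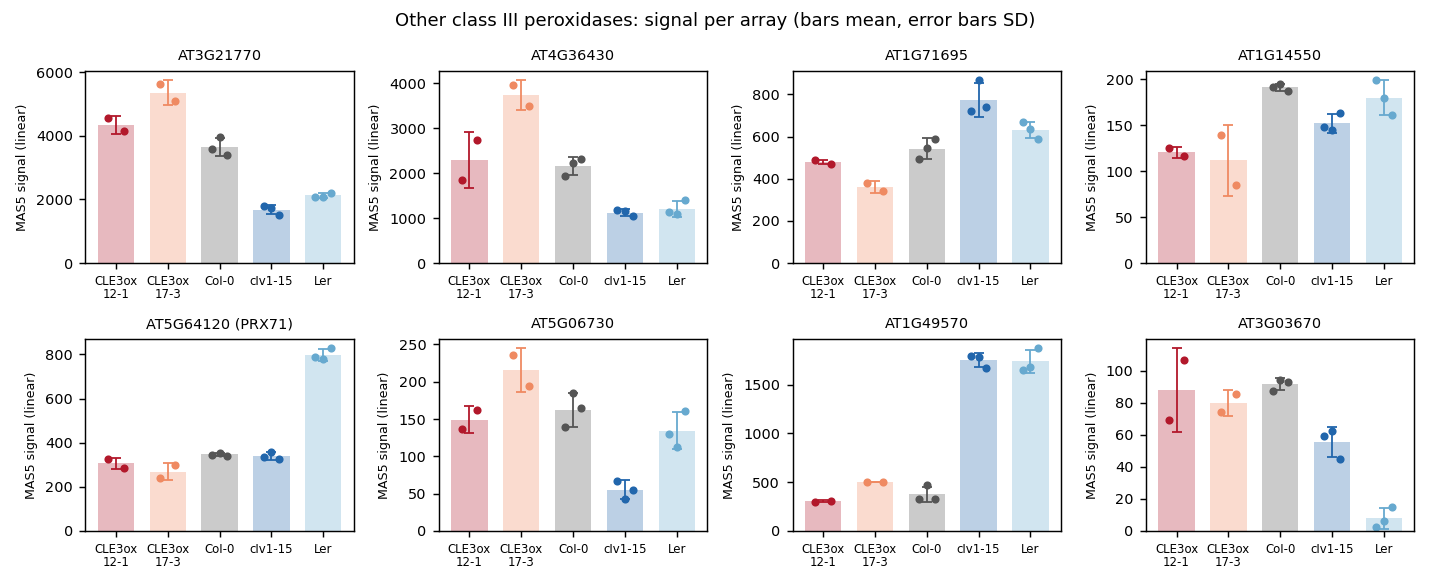
Signal per array (linear MAS5 signal, points) of 8 peroxidases outside the root hair group in both CLE3ox lines, Col-0, clv1-15 and Ler, with group means as bars and SD as error bars. AT3G21770 is highest in line 17-3 (5638 and 5088), AT5G64120 (PRX71) is at 241 to 358 in 4 groups and 777 to 828.5 in Ler, and AT3G03670 is at 2.3 to 15.2 in Ler.

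The 2 overexpression lines were then taken singly. In line 12-1 0 of 38 peroxidases passed the limma test, where 0.433% of all tested probe sets did (0.0879% higher and 0.345% lower), and 4 (10.5%) had an unadjusted p under 0.05, against 8.46% of all tested. In line 17-3 7 passed, 2 higher and 5 lower, or 18.4%, against 3.32% of all tested (1.67% higher and 1.65% lower). Both lines were set against the same 3 Col-0 arrays. AT4G36430 had 1851 and 2731 in line 12-1 and 3967 and 3493 in line 17-3, against 1943, 2218 and 2321 in Col-0. Its line 12-1 arrays fell on both sides of Col-0, while line 17-3 was higher by 0.78 ± 0.14 (SE, adjusted p = 0.0053). Without the first array of line 17-3 the adjusted p was 0.062 (0.0042 to 0.062 over the alternatives run). AT2G35380 had 1343 and 1326 in line 12-1 and 1199.9 and 1133 in line 17-3, against 1489, 1437 and 1394 in Col-0, and fell in line 17-3, with a log2 change of -0.30 ± 0.08 (SE, adjusted p = 0.049). It lost that call without any 1 of the 5 arrays (0.077 to 0.30, 0.042 to 0.30 over the alternatives run). The remaining calls in line 17-3 were those on AT3G21770 (0.55 ± 0.09), AT1G14550, AT1G71695 (-0.56 ± 0.11), AT4G26010 and AT3G49960. Without the second array of line 17-3 the adjusted p was 0.26 for AT1G14550 (0.0027 to 0.26 over the alternatives run) and 0.11 for AT1G71695 (0.0059 to 0.11).

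Directly compared, line 17-3 and line 12-1 differed in 0 of 38 peroxidases by the limma test, where 0.264% of all tested probe sets differed (0.22% higher and 0.044% lower in line 17-3), while 12 (31.6%) had an unadjusted p under 0.05, against 6.96% of all tested probe sets. The nearest was AT1G49570, with 499 and 497 in line 17-3, against 298 and 312 in line 12-1. It was higher in line 17-3 by 0.68 ± 0.14 (adjusted p = 0.052). Next was AT4G36430, at 0.72 ± 0.16 (adjusted p = 0.083). The effects of the lines on single peroxidases were thus not shown to differ.

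**Figure D3:**
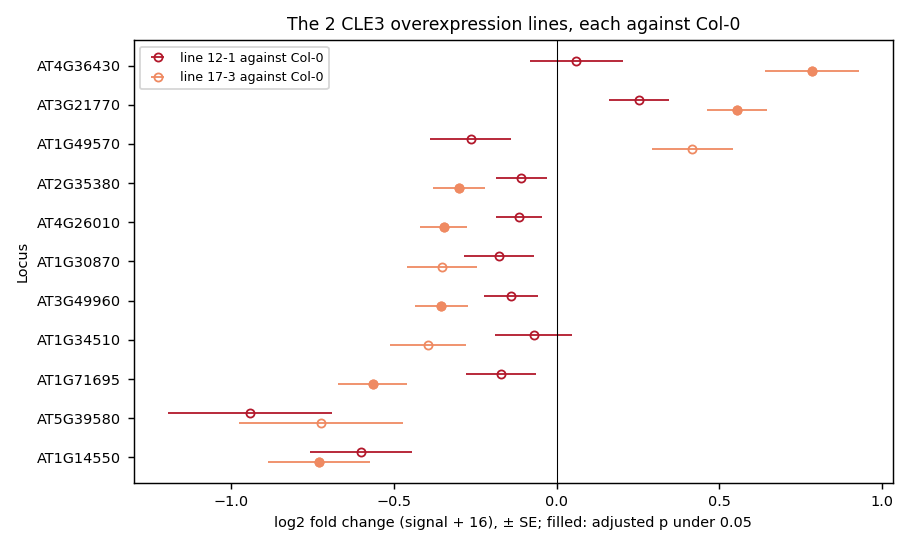
Log2 fold change of signal + 16 (points, with SE as bars) of line 12-1 and of line 17-3 against the same Col-0 arrays, for the peroxidases called in CLE3ox or line 17-3 and for AT1G49570, AT1G30870 and AT1G34510. Filled points passed at an adjusted p under 0.05: 7 in line 17-3 and 0 in line 12-1.

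The bioD spike-in control, which no label mentions as a batch, divided the 7 arrays of the Col-0 background. The second arrays of both lines and the last Col-0 array had signals of 3894 to 4093, against 2765 to 3092 in the other 4. With this division as a block 5 peroxidases passed in CLE3ox, among them the 4 above. Each batch held 1 array of each line, with 2 Col-0 arrays in the lower and 1 in the higher, so these fits take a single array to vary like those of the other groups, clv1-15 and Ler included. For the mean of both lines 0 of 38 passed within the lower batch and 0 within the higher. AT3G21770 had a log2 fold change of 0.42 within the lower and 0.43 within the higher batch (adjusted p = 0.086 and 0.20), AT1G14550 -0.50 and -0.81 (0.18 and 0.12), AT1G71695 -0.26 and -0.53 (0.52 and 0.19), and AT5G39580 -0.74 and -0.83 (0.41 and 0.42). Since all CLE3ox arrays lay on one side of the Col-0 arrays for these 4 genes, their signs could not differ between the batches. The root hair gene AT4G26010 in line 17-3 had -0.42 and -0.29 (0.059 and 0.31). Of the 7 calls in line 17-3, here 1 array per batch, 2 passed within the lower batch, AT4G36430 (0.93, adjusted p = 0.015) and AT3G21770 (0.58, adjusted p = 0.047), and 0 within the higher.

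In clv1-15, 11 of 38 tested peroxidases passed, 6 higher and 5 lower, or 28.9%, against 15.3% of all tested probe sets (6.88% higher and 8.4% lower). The 38 had a median log2 fold change of 0.01, against -0.02 over all tested. The deepest fall was that of AT5G64120 (PRX71), a peroxidase known from stem lignin, wall stiffness and responses to pathogens. It had 333, 358 and 325 in clv1-15, against 786, 777 and 828.5 in Ler, a log2 change of -1.20 ± 0.09 (SE, adjusted p = 9.7e-07). The 7 arrays of the Col-0 background, at 325 and 286.5 in line 12-1, 241 and 297 in line 17-3 and 345, 355 and 341 in Col-0, lay near the clv1-15 values. AT5G06730 had 67.6, 42.4 and 55.3 in clv1-15, against 130.1, 112 and 161 in Ler, and fell, with a log2 change of -1.08 ± 0.16 (SE, adjusted p = 0.00048). For this gene Col-0 had 139, 184 and 164, near Ler, and the CLE3ox and clv1-15 effects differed by 1.22 ± 0.22 (SE, adjusted p = 0.0026). For AT5G64120 the effects differed by 0.93 ± 0.13 (SE, adjusted p = 0.00023).

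Besides AT3G21770, the other falls in clv1-15 were those of AT4G08770 (Prx37) and AT2G35380. AT2G35380 had 817.5, 829 and 874 in clv1-15, against 1079, 993.5 and 979.5 in Ler (-0.27 ± 0.07 SE, adjusted p = 0.018). That call was lost on leaving out clv1-15 array 1 or 2 or Ler array 1 (adjusted p 0.055 to 0.076, 0.012 to 0.076 over the alternatives run). Outside the root hair group 2 peroxidases rose. AT5G15180 had 1579.7, 1418 and 1643.5 in clv1-15, against 1277, 1133 and 1076 in Ler, and rose by 0.41 ± 0.10 (SE, adjusted p = 0.011). The CLE3ox effect on it was lower than the clv1-15 effect by a difference of -0.56 ± 0.13 (SE, adjusted p = 0.014). AT2G41480 (PRX25), known from lignin formation in stems, had 1135, 809 and 597 in clv1-15, against 573, 665 and 487 in Ler. Its groups overlapped, and the rise of 0.51 ± 0.17 (SE, adjusted p = 0.049) rests on single arrays. Without the first clv1-15 array the log2 fold change was 0.28 (adjusted p = 0.21), and leaving out clv1-15 array 2, Ler array 1 or Ler array 3 ended the call too (0.10 to 0.17, 0.0043 to 0.21 over the alternatives run).

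**Figure D4:**
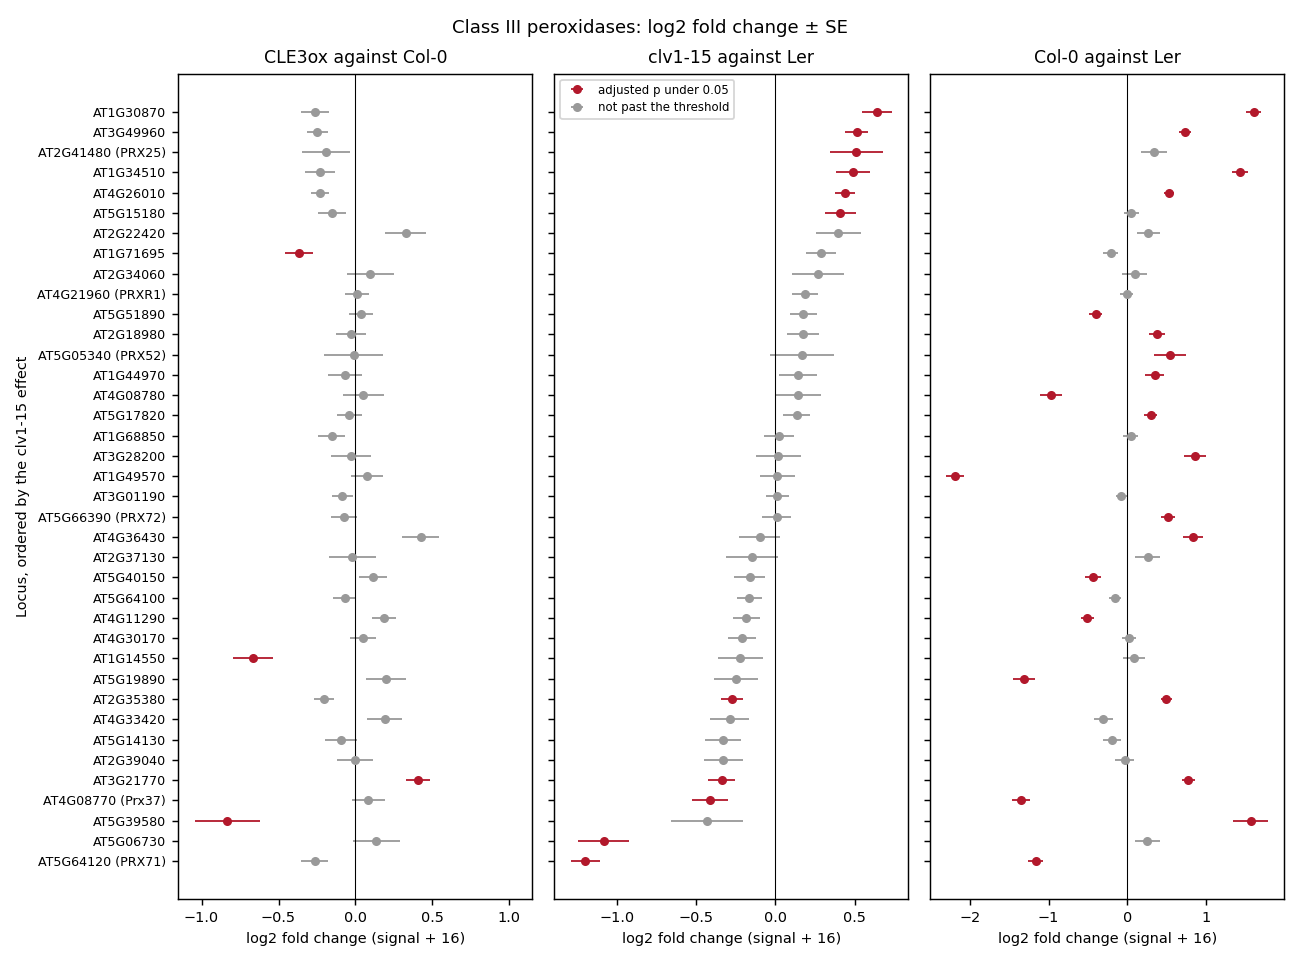
Log2 fold change of signal + 16 (points, with SE as bars) of the 38 tested peroxidases in 3 panels (CLE3ox against Col-0 at the left, clv1-15 against Ler in the middle, the wild types at the right), ordered by the clv1-15 effect. Red points passed at an adjusted p under 0.05, 4, 11 and 22 of the 38; the horizontal scales differ between panels.

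Peroxidases of the endodermal barrier and of lignin formed a second group, with 9 loci measured of 13 listed. None of the 9 passed the limma test in CLE3ox (0 rose and 0 fell), where 2.44% of all tested probe sets did. At an unadjusted p under 0.05 there were 3, against 14.4% of all tested probe sets. Their log2 fold changes lay between -0.27 and 0.33. In clv1-15 1 rose (PRX25) and 1 fell (PRX71), beside 6.88% and 8.4% of all tested. AT5G66390 (PRX72), known from lignification of stems and of the Casparian strip, had 1514, 1460.5 and 1768 in clv1-15, against 1486, 1592 and 1622 in Ler (0.01 ± 0.09, adjusted p = 0.96). AT1G44970 and AT4G11290, which are likewise known from the Casparian strip, had 0.14 ± 0.12 (adjusted p = 0.44) and -0.18 ± 0.09 (adjusted p = 0.16). The xylem peroxidase genes AT5G51890 and AT4G33420 had 0.18 ± 0.09 (adjusted p = 0.17) and -0.29 ± 0.12 (adjusted p = 0.13). AT2G22420 had 248, 196 and 214 in clv1-15, against 145, 175 and 166 in Ler, higher in each array but not past the threshold (0.40 ± 0.14, adjusted p = 0.069). AT5G05340 (PRX52), a lignin peroxidase, had signals of 28.3 to 83.2 over all arrays and 0.17 ± 0.20 in clv1-15 (adjusted p = 0.62).

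The defence list held 4 measured loci of 8. In CLE3ox 2 of these fell (AT1G14550 and AT5G39580) and 0 rose, and in clv1-15 2 fell (Prx37 and PRX71) and 0 rose, where 1.39% and 8.4% of all tested probe sets fell. AT1G14550 had 148, 144 and 163 in clv1-15, against 199, 179.6 and 162 in Ler, with overlap (-0.22 ± 0.14, adjusted p = 0.31). PRX71 had a CLE3ox effect of -0.27 ± 0.09 (adjusted p = 0.14).

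Some peroxidase genes lie side by side in the genome, and both neighbours were measured for 3 of 9 listed groups. AT4G08770 (Prx37) and AT4G08780 have no protein-coding gene between them in the TAIR10.1 annotation. Prx37 had 1502, 1577 and 1522 in clv1-15, against 2084, 1863 and 2195 in Ler, and fell, with a log2 change of -0.41 ± 0.11 (SE, adjusted p = 0.023). Its neighbour AT4G08780 had 839, 714 and 675 in clv1-15, against 625, 718.5 and 662 in Ler, with overlapping groups (0.14 ± 0.14, adjusted p = 0.53). The call on Prx37 ended without any 1 of 5 arrays, all but the second Ler array (adjusted p 0.05 to 0.083, 0.0073 to 0.083 over the alternatives run). Both neighbours were lower in Col-0 than in Ler. Prx37 had 658, 802 and 942 in Col-0, -1.35 ± 0.11 (SE, adjusted p = 1.2e-07) relative to Ler, and AT4G08780 had 261, 373 and 380, -0.97 ± 0.14 (SE, adjusted p = 4.9e-05). In CLE3ox neither passed, with 0.08 ± 0.10 for Prx37 and 0.05 ± 0.13 for AT4G08780.

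AT5G64100 and AT5G64120 (PRX71) have 1 protein-coding gene between them. AT5G64100 had 5761, 6930.3 and 5489 in clv1-15, against 6324.5, 7080.2 and 6908 in Ler (-0.17 ± 0.08, adjusted p = 0.17), beside the fall of -1.20 ± 0.09 in PRX71. In Col-0 it had 5977, 6105 and 6091 (-0.16 ± 0.08 relative to Ler, adjusted p = 0.12), beside -1.16 ± 0.09 (adjusted p = 7e-08) in PRX71. AT5G19880 and AT5G19890 are direct neighbours. AT5G19880 had signals of 1.1 to 25.5 over all 13 arrays and was left out of the test. AT5G19890 had 260.1, 364 and 273 in Col-0, against 782, 725 and 770.5 in Ler (-1.31 ± 0.14 SE, adjusted p = 1.8e-06). It had 634, 555 and 735 in clv1-15 (-0.25 ± 0.14 relative to Ler, adjusted p = 0.25). AT1G14550 and AT5G06730, described above, also have a listed direct neighbour, which was not analysed here. Whether neighbouring genes differ from one another in their response was not tested.

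**Figure D5:**
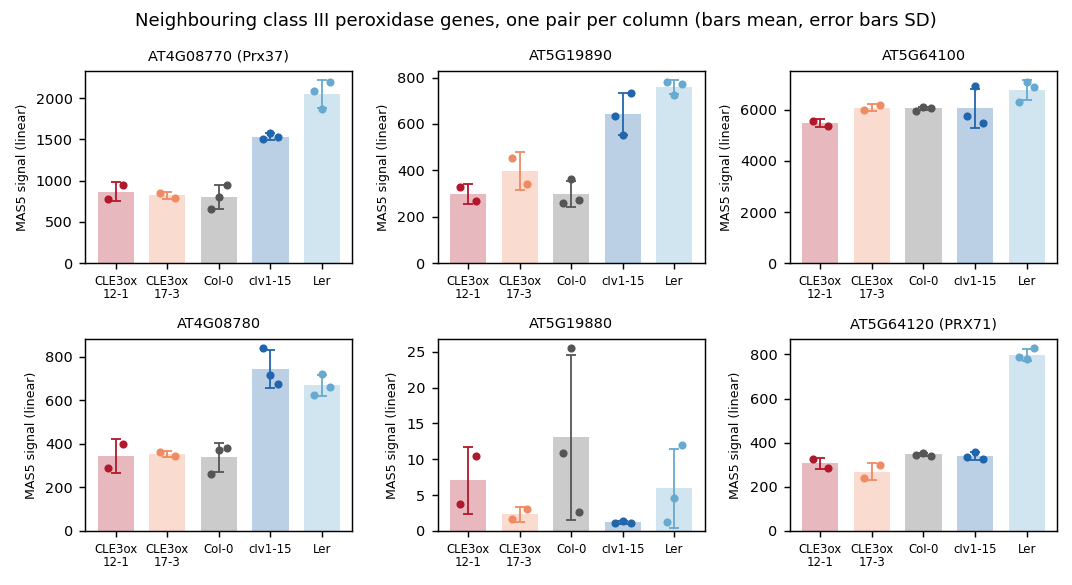
Signal per array (linear MAS5 signal, points) of 3 pairs of neighbouring peroxidase genes, 1 pair per column, in both CLE3ox lines, Col-0, clv1-15 and Ler, with group means as bars and SD as error bars. In the right column AT5G64100 is between 5365 and 7080 in all groups while PRX71 is at 777 to 828.5 in Ler and 241 to 358 elsewhere.

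Between the wild types, 22 of 38 tested peroxidases differed in signal (57.9%), 14 higher and 8 lower in Col-0. Among all tested probe sets 45.3% differed (20.9% higher and 24.4% lower). Whether sequence differences between Col-0 and Ler under the probes altered the signals in this comparison was not tested. AT1G49570 was the deepest, with 328, 467 and 328 in Col-0, against 1655, 1683 and 1874.5 in Ler, which is 4.54-fold lower in Col-0 on the scale of signal + 16 (-2.18 ± 0.11 SE, adjusted p = 4.1e-10). Its signals followed the ecotype in all 5 groups, at 298 to 499 in the 7 arrays of the Col-0 background and 1655 to 1874.5 in the 6 of the Ler background. The other falls in Col-0 outside the neighbour pairs were AT4G11290 (-0.51 ± 0.09), AT5G40150 (-0.44 ± 0.10), and the xylem gene AT5G51890 (-0.40 ± 0.09).

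Of the 8 root hair peroxidases 6 were higher in Col-0 than in Ler and 0 lower, where 20.9% of all tested probe sets were higher and 24.4% lower. Their median log2 fold change was 0.63, against -0.04 over all tested probe sets. AT1G30870 averaged 4992 ± 297 in Col-0 and 1645 ± 265 in Ler (SD, n = 3 each), a difference of 1.60 ± 0.10 (SE, adjusted p = 2.8e-09). AT5G39580 averaged 199 ± 35.5 in Col-0 and 56.7 ± 11.3 in Ler, a difference of 1.56 ± 0.23 (SE, adjusted p = 4.1e-05). AT1G34510 differed by 1.43 ± 0.10 (SE, adjusted p = 2.7e-08), AT3G49960 by 0.73 ± 0.07, AT4G26010 by 0.53 ± 0.06 and AT5G17820 by 0.29 ± 0.09. The clv1-15 means of AT1G30870 (2560 ± 195) and AT1G34510 (330.1 ± 12.2) lay between the Col-0 and Ler means. So did those of AT3G49960 (1873 ± 140), AT4G26010 (7013 ± 310) and AT5G17820 (5330 ± 721, not called in clv1-15). That of AT5G39580 (39.7 ± 18.6) lay below both. The root hair markers EXPA7 and EXPA18 were higher in Col-0 as well (1.07 ± 0.09 and 1.29 ± 0.10). Of the shoot markers, RCA was lower in Col-0 (-1.04 ± 0.12 SE, adjusted p = 6.1e-06). LHCB4.1 did not pass (0.05 ± 0.09, adjusted p = 0.68).

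The remaining rises in Col-0 were those of AT3G28200 (0.86 ± 0.14), AT4G36430 (0.83 ± 0.13), AT3G21770 (0.77 ± 0.08), PRX52 (0.54 ± 0.20, adjusted p = 0.04), PRX72 (0.51 ± 0.09), AT2G35380 (0.50 ± 0.07), AT2G18980 (0.37 ± 0.10) and AT1G44970 (0.35 ± 0.12, adjusted p = 0.026). The call on PRX52 ended without the second or last Col-0 or the second Ler array (adjusted p 0.085 to 0.16, 0.027 to 0.16 over the alternatives run). That on AT1G44970 ended without the first Col-0 or the second Ler array (0.11 to 0.12, 0.0067 to 0.12). Of the 9 barrier and lignin loci 3 were higher and 3 lower in Col-0, beside 20.9% and 24.4% of all tested probe sets.

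The 5 peroxidases left out of the test for low signal were AT3G03670, AT4G17690, AT4G25980, AT5G19880 and AT5G58390. AT3G03670 had 59, 62.6 and 44.6 in clv1-15, against 2.3, 6.3 and 15.2 in Ler. In Col-0 it had 87.2, 94.1 and 93.1, and in the CLE3ox lines 69.4 and 106 (12-1) and 74.1 and 85.7 (17-3). Ler alone was near 0, without overlap with any other group. With no filter on low signal AT3G03670 was higher in clv1-15 than in Ler (adjusted p = 0.00045) and in Col-0 than in Ler (2.5e-06), and did not pass in CLE3ox (0.87). No fold is given, since the Ler signals lie under the pseudocount of 16, which would set its size. The other 4 had signals of at most 40.3 in any array, and without the filter 1 of them passed in these 3 comparisons, AT4G25980, higher in Col-0 than in Ler (adjusted p = 0.047). These genes were singled out after their values were seen.

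AT4G21960 (PRXR1) and AT3G01190 passed in none of the 7 comparisons. AT4G21960 had 22572, 24927 and 24687 in clv1-15, against 19791, 19763 and 24009.5 in Ler, with overlap, and did not pass in CLE3ox (0.01 ± 0.08), clv1-15 (0.19 ± 0.08) or Col-0 against Ler (-0.01 ± 0.08). AT3G01190 had 8332.5, 9476 and 8789 in clv1-15, against 8496, 9526 and 8345 in Ler, and log2 fold changes of -0.09 ± 0.07, 0.01 ± 0.07 and -0.08 ± 0.07 in the same 3 comparisons.

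The remaining tested peroxidases, AT1G68850, AT2G34060, AT2G37130, AT2G39040 and AT5G14130, also passed in none of them. Nearest in clv1-15 was AT5G14130, with 482, 404 and 456, against 554, 547 and 592 in Ler (-0.33 ± 0.11, adjusted p = 0.062), and AT2G39040 had -0.33 ± 0.12 (adjusted p = 0.089).

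Other genes of wall oxidation were measured in small part. Of 11 listed NADPH oxidases and regulators 4 were tested. In CLE3ox 0 of the 4 passed the limma test, against 2.44% of all tested probe sets. At an unadjusted p under 0.05 there were 4 (log2 fold changes -0.40 to -0.28), against 14.4% of all tested probe sets. In line 17-3 2 fell, where 1.65% of all tested fell. AT1G19230, an NADPH oxidase gene of the RBOH family, had 413 and 363 in line 17-3, against 518, 486 and 555.5 in Col-0 (-0.41 ± 0.10 SE, adjusted p = 0.043), and 310.1, 333 and 305 in clv1-15, against 251.5, 246 and 214 in Ler (0.40 ± 0.09 SE, adjusted p = 0.01). It was the 1 of the 4 that rose in clv1-15, where 6.88% of all tested rose, and the CLE3ox and clv1-15 effects on it differed by -0.67 ± 0.13 (SE, adjusted p = 0.0034). The RBOH gene AT4G25090 fell in line 17-3, with a log2 change of -0.49 ± 0.12 (SE, adjusted p = 0.025). UPB1, which encodes the UPBEAT1 factor that represses peroxidase genes in the root tip, had 435, 346 and 413.5 in clv1-15, against 517.5, 512 and 369 in Ler (-0.21 ± 0.14, adjusted p = 0.34), and -0.39 ± 0.13 in CLE3ox (adjusted p = 0.15). HCT, an enzyme of monolignol synthesis and the 1 tested gene of 19 in its list, rose in clv1-15 by 0.40 ± 0.08 (SE, adjusted p = 0.0053). Of 19 catalases and intracellular peroxidases SAPX was tested, and it passed in neither CLE3ox (0.14 ± 0.10) nor clv1-15 (-0.13 ± 0.11). None of 7 listed superoxide dismutases (0) had a probe set of its own.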

How the data were processed

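RNA of whole roots was measured on 13 ATH1 arrays. Per the submitters' processing notes the authors used MAS5; no version is given. The authors deposited a linear intensity (the MAS5 signal), with a trimmed mean (2% at each end) of 500 on every array; detection calls and probe-level steps are not given in the sources used here. Column names matched samples, with 0 columns left over. The number of arrays limits the precision.

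Tests used log2(signal + 16). Of 22810 probe sets 15922 were tested, after removing 64 controls and, of the rest, the lowest 30% by mean log2 value. limma 3.58.1 in R 4.3.3 fitted all 5 groups together (eBayes with a trend), and p values were adjusted by Benjamini-Hochberg over all tested probe sets in each of 7 comparisons. For CLE3ox both lines were averaged before Col-0 was subtracted, and the standard error holds the spread within groups but not that between the lines. The fit was tested on simulated data.

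The platform's probe table (2016) and, for symbols, the TAIR10.1 annotation gave the genes: 13513 probe sets had 1, 503 several and 8730 none; 4 of those with several genes hold 6 of the listed loci and were not used. Named genes are those that passed in a CLE3ox or effect comparison, up to 12 rises and 12 falls in each other comparison, the measured members of the role lists and neighbour groups, the 5 with the highest mean signal (a rule of choice that ranks no expression) and genes past the threshold in the wall oxidation lists; any other was picked after its values were seen. Members and lists were chosen with earlier results of these data known. Alternatives were other pseudocounts, filters, scalings, variance settings, blocks for replicate number and spike-in batch, each comparison alone, and leaving out each array. Deviations of same-numbered arrays correlated at 0.01, 0.19 and 0.1 between clv1-15 and Ler, -0.11 to 0.04 between Col-0 and Ler, and -0.19 to 0.24 between either CLE3ox line and Col-0, so the numbers were not taken to pair groups with their wild types. Between lines 17-3 and 12-1 they correlated at 0.31 and 0.31, and number and spike-in batch coincide in these lines.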

Additional observations from a re-analysis of the deposited data

How the results depend on the processing

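The counts of called peroxidases for clv1-15 (11), Col-0 against Ler (22) and the difference of effects (9) stayed within 1.5 times under the alternatives run for each, at 10 to 13, 20 to 24 and 9 to 13, and leaving out 1 array gave 8 to 11, 21 to 22 and 9 to 13. For CLE3ox the 4 calls became 2 with no filter on low signal, 2 with the lowest 50% left out, 2 without the trend and 7 with array weights, and 1 to 3 without single arrays. Within the lower and higher spike-in batch 0 passed in each; these fits and a filter on the mean linear signal were chosen after seeing the data. For line 17-3 the 7 calls became 3 in a fit of its comparison alone, 2 and 0 within the batches, and 3 to 6 without single arrays. For line 12-1 the count was 0 throughout. Between the lines it was 1 with quantile normalization and 1 with a block for the spike-in division, both against 0, and 0 to 1 without single arrays. The cause of these changes was not tested. No called fold change reversed (0). For called genes without overlap between the groups, leaving out an array could not reverse the sign. With the replicate number as a block 3, 0, 7, 0, 11, 22 and 12 peroxidases passed in CLE3ox, line 12-1, line 17-3, line against line, clv1-15, Col-0 against Ler and the difference of effects; between each group and its wild type the number is only shared, and 3 calls did not pass there, AT1G71695 in CLE3ox (adjusted p = 0.073, 0.036 to 0.18 over the alternatives run), AT2G35380 in line 17-3 (0.072, 0.042 to 0.30) and PRX52 in Col-0 against Ler (0.056, 0.027 to 0.16). Under the alternatives run the median log2 fold change of all tested probe sets was at most 0.054 in size in each comparison. A single-group fit of the difference of effects was not run, since it uses all groups.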
